A study of Homo sapiens with 18 samples.

Results

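The genes described here are 8 that were lower in an ADAR knockdown line of ZR-75-1 cells than in its control line: IL12RB1, CUBN, KYNU, NOX1, CRYAB, NPY1R, RFX2 and FAM90A27P. They are 8 of 60252 gene IDs in each file, and were chosen because their counts were strongly lower in knockdown than in control libraries in untreated, DMSO-treated or triptolide-treated cells. All 8 were among the 21285 genes that passed the filter on low counts, which their control libraries let them pass. The difference between the lines is therefore the choice itself, and is given below as a description with no test.

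ZR-75-1 is an established breast cancer cell line of luminal, estrogen-receptor-positive type. A control line (SHC in the labels) and the ADAR knockdown line were kept untreated or received DMSO or 100 nM triptolide, the treatments running for 16 h in medium with 1% serum after growth in 10%. Each of the 6 groups holds 3 libraries, labelled biological replicates 1 to 3. The labels name no further knockdown line, so the knockdown of ADAR and any other difference between these lines cannot be told apart, and in bulk RNA fewer cells with a transcript and less of it per cell cannot be told apart either.

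ADAR edits double-stranded RNA by deaminating adenosine to inosine, which the ribosome and reverse transcriptases read as guanosine. Triptolide binds a helicase subunit of the general transcription factor TFIIH and blocks initiation by RNA polymerase II, so transcripts that turn over fast fall first. The listed genes belong to no common pathway: IL12RB1, CUBN and NPY1R encode cell-surface receptors, KYNU and NOX1 enzymes, CRYAB a chaperone and RFX2 a transcription factor, while FAM90A27P belongs to a multigene family of little-known function.

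The promoters of 3 genes are shown because all 3 were close to 0 in the knockdown line without triptolide, and under the drug CUBN and IL12RB1 passed the test there as higher while KYNU did not pass it. Each is the 250 bases before the gene's RefSeq start on GRCh38.p14, written 5′ to 3′ on the gene's strand, with matches to the motifs searched in capitals. The IL12RB1 window is chr19:18098928-18099177 on the minus strand, the CUBN window chr10:17129812-17130061 on the minus strand and the KYNU window chr2:142877414-142877663 on the plus strand.
IL12RB1: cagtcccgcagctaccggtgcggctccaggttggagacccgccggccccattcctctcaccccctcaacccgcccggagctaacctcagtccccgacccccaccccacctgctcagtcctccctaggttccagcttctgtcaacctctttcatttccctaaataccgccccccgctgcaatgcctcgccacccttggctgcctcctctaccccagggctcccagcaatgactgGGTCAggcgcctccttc
CUBN: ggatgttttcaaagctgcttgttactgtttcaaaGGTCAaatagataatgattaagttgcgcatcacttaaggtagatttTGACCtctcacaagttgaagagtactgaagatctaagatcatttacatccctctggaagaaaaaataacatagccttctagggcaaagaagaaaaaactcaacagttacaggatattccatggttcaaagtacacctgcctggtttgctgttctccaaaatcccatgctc
KYNU: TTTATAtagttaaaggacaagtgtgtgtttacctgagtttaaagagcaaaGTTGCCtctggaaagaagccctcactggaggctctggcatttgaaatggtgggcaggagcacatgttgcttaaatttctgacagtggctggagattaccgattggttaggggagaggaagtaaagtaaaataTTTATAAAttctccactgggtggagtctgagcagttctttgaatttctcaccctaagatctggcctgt

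RefSeq's table held a promoter for 5 of the 8 genes, and 4 motifs were searched on both strands. GGTCA, the estrogen response element half-site, was found at 1 place in the IL12RB1 window and at 2 in that of CUBN, and 32.6% of 35116 windows of the same length hold it. Of the windows not shown, that of NOX1 held it at 1 place and that of NPY1R at none, and KYNU held none either. NOX1 too was close to 0 in the knockdown line without triptolide and did not pass the test there under the drug. KYNU held 1 match to GTTGCC, an X-box half-site of the kind RFX factors bind, which 10.2% of windows hold. TATAAA, the TATA box, matched KYNU at 3 places, of which a pair overlap in the capitals nearer the start site, and 10.7% of windows hold it. GCCNNNGGC, the AP-2 motif, matched none of these windows, and 19.8% of all windows hold it. Base composition differed, with 65.2% G and C in the IL12RB1 window, 38% in that of CUBN and 42.4% in that of KYNU. A match is a run of letters and not a measured site.

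ADAR itself was the check of the labels. Levels here and below are in CPM, counts per 1e6 counts in genes after TMM, edgeR's correction for library composition, and are listed for replicates 1, 2 and 3. In the control line ADAR stood at 475.1, 664 and 296.9 CPM untreated, 457.2, 664.4 and 280.1 CPM with DMSO, and 351.3, 466.9 and 318.9 CPM with triptolide. The knockdown line gave 351.4, 338.7 and 194.9 CPM untreated, 293, 356.2 and 217 CPM with DMSO, and 109.5, 163.6 and 141.4 CPM with triptolide. ADAR was lower in the knockdown library of all 9 pairs of equal replicate number and treatment, at 51% to 77.5% of control without triptolide and 31.2% to 44.4% with it. The groups overlapped without triptolide. The log2 difference was -0.70 ± 0.33 (SE) untreated, -0.69 ± 0.33 with DMSO and -1.46 ± 0.34 with triptolide, with edgeR adjusted p of 1, 1 and 0.325. In the fit that keeps the replicate number as a block, those adjusted p values were 0.137, 0.144 and 0.000192, and DESeq2 gave 1, 1 and 0.0228. ADAR therefore passed under triptolide by the blocked fit and by DESeq2, and in no other treatment.

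Counts in genes ran from 26.71e6 to 35.67e6 per library. Mitochondrial ribosomal RNA took 20.2% to 37.1% of those counts without triptolide and 42.7% to 55.2% with it. The cells carried the luminal markers: 14 of 14 averaged at least 1 CPM, led by the keratin KRT8 at 2730 CPM. Of the other markers checked, 5 of 9 basal, 2 of 12 leukocyte, 2 of 10 stromal, 1 of 6 matched endothelial and 1 of 8 kidney tubule or intestinal genes reached 1 CPM, and the stromal gene LUM had no count in any library. The 12 leukocyte markers, of the cells in which IL12RB1 is best known, summed to 4.98 to 9.16 CPM in untreated control and 4.75 to 7.84 CPM in untreated knockdown libraries. Under triptolide those sums were higher in both lines, at 10.2 to 20.3 CPM in control and 11.4 to 21.4 CPM in knockdown cells, against 5.32 to 8.51 and 4.62 to 7.84 CPM with DMSO. The 8 tubule and intestinal markers, of the cells in which CUBN and NOX1 are best known, summed to 1.10 to 4.06 CPM in control and 0.69 to 4.85 CPM in knockdown cells with DMSO, and to 4.02 to 6.19 and 4.68 to 5.09 CPM with triptolide. No marker in any of these lists passed edgeR's test between the lines, and with the replicate block ESR1, TFF1 and VIM were called higher, as given below.

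IL12RB1 encodes the receptor subunit shared by interleukin-12 and interleukin-23, known from T cells and natural killer cells, and lies at chr19:18169805-18209754 on the minus strand of GRCh37, as do all gene positions below on that build. In control cells it measured 27.7, 17.6 and 24.6 CPM untreated, 28.1, 19.5 and 25.3 CPM with DMSO, and 14.9, 10.1 and 16.8 CPM with triptolide. The knockdown libraries held 4, 1 and 0 raw counts untreated, 2, 0 and 2 with DMSO, and 7, 2 and 3 with triptolide. Every control library lay far above every knockdown library, and the knockdown libraries reached between 0% and 0.407% of their control partner without triptolide and between 0.637% and 2.11% with it. Knockdown minus control came to -8.73 ± 0.57 (log2 ± SE) untreated, -9.27 ± 0.59 with DMSO and -6.34 ± 0.51 with triptolide. With so few counts the size rests on single libraries: it was -10.17 untreated without knockdown replicate 1, and -7.05 under triptolide without knockdown replicate 1.

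CUBN encodes cubilin, the receptor that takes up vitamin B12 bound to intrinsic factor in the gut and filtered proteins in the kidney, and lies at chr10:16865965-17171810 on the minus strand. Its control levels were 5.56, 26.1 and 9.29 CPM untreated, 6.41, 21.3 and 7.35 CPM with DMSO, and 12.1, 34.3 and 17.3 CPM with triptolide. Its knockdown levels were 0.14, 0.28 and 0.27 CPM untreated, 0.024, 0.63 and 0.23 CPM with DMSO, and 4.68, 6.21 and 2.68 CPM with triptolide. Replicate 2 was the highest control library in each treatment, and replicate 1 the lowest. The lines did not overlap within any treatment, but the gap was narrower under triptolide, where knockdown libraries reached 15.5% to 38.8% of their control partner, against 0.375% to 3.09% without it. Knockdown minus control was -5.88 ± 0.85 untreated, -5.32 ± 0.81 with DMSO and -2.23 ± 0.67 with triptolide. Leaving out control replicate 2 gave -4.53 with DMSO and -5.00 untreated, and leaving out knockdown replicate 2 gave -6.56 with DMSO.

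NPY1R encodes a receptor for neuropeptide Y that is an estrogen-induced gene of breast cancer cells, at chr4:164245114-164265984 on the minus strand. Control libraries gave 15.2, 15.8 and 15.4 CPM untreated, 13.2, 13.1 and 14.1 CPM with DMSO, and 6.22, 9.38 and 7.31 CPM with triptolide. Knockdown libraries gave 3.47, 3.24 and 4.69 CPM untreated, 4.09, 4.83 and 4.42 CPM with DMSO, and 1.62, 2.80 and 2.32 CPM with triptolide. The control replicates had a coefficient of variation of 2.01% untreated, 4.16% with DMSO and 21% with triptolide, and the lines did not overlap in any treatment. NPY1R was reduced rather than lost: knockdown libraries kept 20.5% to 36.9% of their control partner over all 9 pairs. The log2 difference was -2.02 ± 0.23 untreated, -1.60 ± 0.23 with DMSO and -1.76 ± 0.24 with triptolide, and scaling to mitochondrial mRNAs changed the DMSO value to -1.01.

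KYNU encodes kynureninase, which cleaves kynurenine and 3-hydroxykynurenine on the route from tryptophan to NAD, and lies at chr2:143635226-143813402 on the plus strand. It measured 5.56, 6.52 and 2.10 CPM in untreated control cells, 6.45, 3.97 and 2.35 CPM with DMSO, and 5.25, 5.03 and 2.80 CPM with triptolide. The knockdown line gave 0.31, 0.11 and 0.27 CPM untreated, 0.17, 0.028 and 0.40 CPM with DMSO, and 0.18, 0.047 and 0.21 CPM with triptolide. Replicate 3 was the lowest control library in each treatment and replicate 2 the lowest knockdown library. Knockdown libraries held 0.695% to 16.9% of their control partner. The log2 difference was of like size in the 3 treatments, at -4.32 ± 0.67 untreated, -4.41 ± 0.67 with DMSO and -4.82 ± 0.72 with triptolide. Without knockdown DMSO replicate 3 the DMSO value was -5.34.

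NOX1 encodes an NADPH oxidase of colon epithelium that makes superoxide, and lies at chrX:100098313-100129348 on the minus strand. Its control levels were 2.09, 3.22 and 2.29 CPM untreated, 1.96, 2.81 and 2.06 CPM with DMSO, and 2.20, 4.16 and 2.4 CPM with triptolide. Its knockdown libraries held 2, 6 and 4 raw counts untreated, 11, 5 and 3 with DMSO, and 5, 5 and 8 with triptolide, against 48 to 96 counts in the control libraries. All control libraries were higher than all knockdown libraries, and replicate 2 was the highest control library in each treatment. The knockdown share of control ran from 2.70% to 13.5%. The log2 difference was -4.29 ± 0.49 untreated, -3.75 ± 0.46 with DMSO and -3.53 ± 0.46 with triptolide.

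CRYAB encodes αB-crystallin, a small heat shock protein that holds unfolding proteins in solution, at chr11:111779288-111794446 on the minus strand. Control libraries gave 7.23, 6.35 and 4.39 CPM untreated, 5.83, 6.53 and 5.70 CPM with DMSO, and 9.52, 11.1 and 12.6 CPM with triptolide. Knockdown libraries gave 0.93, 0.67 and 1.19 CPM untreated, 0.63, 1.57 and 0.45 CPM with DMSO, and 2.07, 2.52 and 1.5 CPM with triptolide. The lines stayed apart in each treatment, and both were highest under triptolide on this scale. Knockdown libraries kept 7.95% to 27.2% of their control partner. The log2 difference was -2.68 ± 0.39 untreated, -2.77 ± 0.39 with DMSO and -2.45 ± 0.38 with triptolide, the DMSO value being -3.46 without knockdown replicate 2.

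RFX2 encodes a winged-helix transcription factor that binds X-box motifs and drives genes of cilia and of sperm development, and lies at chr19:5993175-6199583 on the minus strand. In control cells it stood at 41.5, 34.7 and 37.8 CPM untreated, 44.3, 45 and 43.2 CPM with DMSO, and 40.4, 37.9 and 53.2 CPM with triptolide. In knockdown cells it stood at 13.6, 13.9 and 11.4 CPM untreated, 11, 14.2 and 12.4 CPM with DMSO, and 8.5, 10.5 and 9.25 CPM with triptolide. RFX2 also stayed expressed in the knockdown line, at 17.4% to 40% of the control partner, and no knockdown library reached a control library. Its log2 difference in untreated cells, -1.55 ± 0.18, was the smallest among the listed genes other than FAM90A27P, and it was -1.82 ± 0.18 with DMSO (-1.24 when scaled to mitochondrial mRNAs) and -2.22 ± 0.19 with triptolide.

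FAM90A27P, at chr19:53780715-53788200 on the plus strand, is annotated as protein-coding although its symbol ends in the P of a pseudogene. It had raw counts of 63, 21 and 75 in control libraries given triptolide. Control libraries held 2, 1 and 1 counts untreated and none with DMSO, and the 9 knockdown libraries held none. Without triptolide both lines were at or near 0, so the gene was not lost there, and its difference between the lines was seen under triptolide. Taking 3 counts per group of libraries as the floor, it was at least 59-fold lower in knockdown than in control cells given triptolide, and at least 87-fold higher in control cells given triptolide than in those given DMSO. The floors came to 0.0419 CPM in the knockdown triptolide group and 0.0284 CPM in the control DMSO group, and cover counting error only. Both folds use the libraries that chose the gene, so no test is given, and near-identical copies in its family could share its reads.

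**Figure D1:**
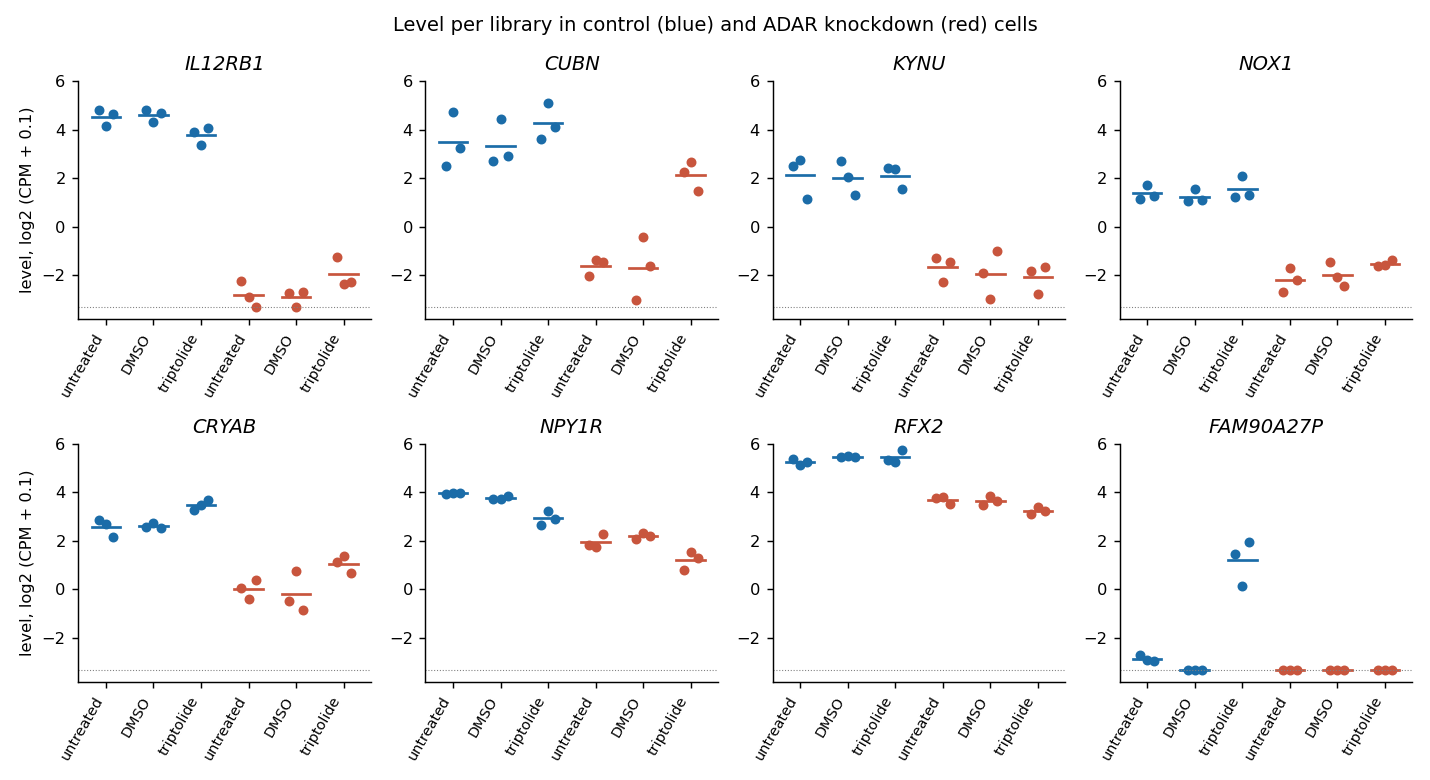
Level of each of the 8 genes in each of the 18 libraries, as log2 of CPM plus 0.1, with control libraries in blue, knockdown libraries in red and the mean of the 3 libraries of a group as a line. The dotted line marks a level of 0. IL12RB1 stays at 0.31 CPM or less in knockdown cells. CUBN stays at 0.63 CPM or less there without triptolide and is higher with it. NPY1R and RFX2 lie lower in knockdown than in control cells but well above the dotted line. FAM90A27P lies well above that line only in control cells given triptolide.

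The knockdown libraries of 8, 7 and 8 of the 8 genes lay entirely below the control libraries in untreated, DMSO and triptolide cells, FAM90A27P being the exception with DMSO. Over all genes tested that held for 2.49% untreated, 3.27% with DMSO and 3.66% with triptolide. The choice of the genes fixes these counts, and nothing is read from them. A gene counts as called, here and below, when its p adjusted by Benjamini-Hochberg over all 21285 genes was under 0.05. Without the replicate block edgeR called 15 genes lower untreated and 12 with DMSO, and with the block 59 and 53. Of the 10 genes called lower both untreated and with DMSO without the block, 7 are listed here. The other 3 were the long noncoding RNA gene ENSG00000228809 at -3.70 and -3.30, the cytoskeletal gene MTCL1 at -1.49 and -1.43, and the pseudogene PGAM1P8 at -2.69 and -3.76. The listed gene with the smallest untreated difference among those 7 was RFX2 at -1.55. ENSG00000203632.3, which the annotation used here does not match, was called lower under triptolide and in neither other treatment, at -3.0. Among genes called lower in a single treatment were PCDH11X and SLCO4C1 untreated at -7.50 and -3.42, and COL6A3 and FAM171A1 with DMSO at -2.81 and -2.44. PCDH11X, at a mean of 0.33 CPM over the 18 libraries, also differed by -3.84 with DMSO and -7.34 with triptolide.

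**Figure D2:**
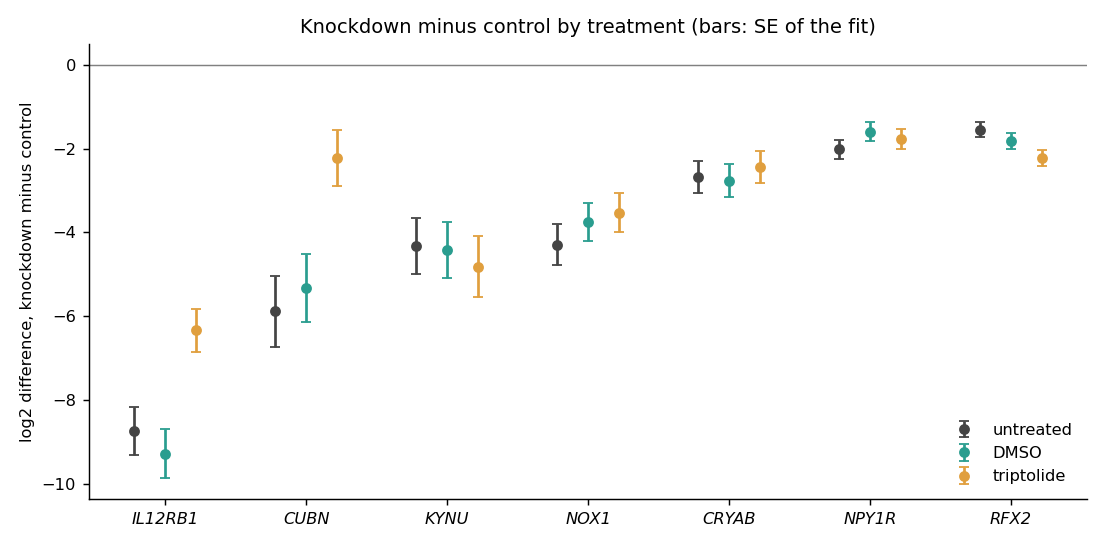
Log2 difference of knockdown minus control for 7 of the genes in untreated, DMSO-treated and triptolide-treated cells, with bars for the SE of the fit (3 libraries per group). IL12RB1 and CUBN are nearer 0 under triptolide, at -6.34 and -2.23, while KYNU, NOX1, CRYAB and NPY1R keep differences of similar size and RFX2 moves from -1.55 to -2.22.

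The effect of the vehicle and of triptolide within each line was not the contrast that chose 7 of the genes, although the same untreated, DMSO and triptolide libraries enter both the choice and these tests. The choice favoured low knockdown DMSO libraries and high control DMSO libraries. That can favour a rise under triptolide in the knockdown line and a fall in the control line. The p values given below do not allow for this. FAM90A27P was chosen on its control triptolide libraries and is left out of these counts. Between DMSO and untreated cells 0 of the 7 genes passed edgeR's test in the control line and 0 in the knockdown line, where 0% and 0% of all genes were called. No gene of any kind was called there by edgeR with or without the replicate block or by DESeq2, and 121 and 208 genes had an unadjusted p under 0.05. The 7 changes lay between -0.22 and 0.22 in the control line and between -0.49 and 0.38 in the knockdown line.

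Under triptolide, 1 of the 7 genes was called in the control line, NPY1R, which fell. In all, 14.9% of genes tested were called higher and 16% lower there. In the knockdown line 4 of the 7 were called: IL12RB1, CUBN and CRYAB rose and NPY1R fell, beside 16.7% of all genes called higher and 18.9% lower. With the replicate number as a block, 4 of 7 were called in the control line, with CUBN and CRYAB higher and IL12RB1 and NPY1R lower, beside 26.1% of all genes higher and 26% lower. The block gave 5 of 7 in the knockdown line, where RFX2 fell too, beside 29.1% higher and 28.1% lower. The median change of the 7 genes was 0.03 in the control line and 0.59 in the knockdown line, and that of all genes 0.03 and 0.04. All of these are changes relative to the typical gene: scaled to total counts the median of all genes was -0.60 and -0.67, and scaled to mitochondrial mRNAs -0.79 and -1.36. Mitochondrial ribosomal RNA took a larger share of counts with triptolide, as given above. Markers of other cell types were also higher there: of 12 leukocyte markers 6 passed the filter on low counts, and 4 of them were called higher in each line and none lower, with a median of 3.84 in control and 3.53 in knockdown cells. Of 10 stromal markers 6 were tested and 2 called higher in each line, and of 8 tubule and intestinal markers 3 were tested and 1 called higher in each line, the stem cell receptor gene LGR5. Several of the called markers passed the filter on low counts only through triptolide libraries, which favours a rise. In control cells CD14 went from 0.008 CPM with DMSO to 1.16 CPM with triptolide, and LGR5 from 0 to 2.05 CPM. Nothing is read from these marker counts and medians. The part of these values in the members' changes was not tested.

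CUBN had the largest triptolide change of the 7 genes in the knockdown line, at 3.94 ± 0.79 (edgeR adjusted p = 0.000977), with all 3 libraries higher than all 3 DMSO libraries. It stayed called under each scaling, at 3.27 with total counts and 2.62 with mitochondrial mRNAs, and was 3.36 without knockdown DMSO replicate 1 and 5.17 without knockdown DMSO replicate 2. In the control line CUBN changed by 0.86 ± 0.64 (adjusted p = 0.33). That value was 0.24 with total counts, 0.22 with mitochondrial mRNAs, 1.63 without control DMSO replicate 2 and 0.32 without control triptolide replicate 2, and did not pass the test in any of these. The fit with the replicate block gave 0.94 ± 0.27 there (adjusted p = 0.00635), and CUBN was higher in 3 of 3 pairs.

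IL12RB1 went opposite ways in the lines. In the control line it changed by -0.80 ± 0.36 (edgeR adjusted p = 0.0979), lower in 3 of 3 pairs, and passed with the block at -0.81 ± 0.19 (adjusted p = 0.00126) and by DESeq2 (adjusted p = 0.0417). It also passed with total counts, at -1.44, and with mitochondrial mRNAs, at -1.72. In the knockdown line it rose by 2.13 ± 0.80 (adjusted p = 0.0445), which rests on 12 counts with triptolide against 4 with DMSO over 3 libraries each. The ratio of those counts per effective library size was 4.74, with an exact 95% interval of 1.44 to 20.2 for counting error. The call was lost without knockdown triptolide replicate 1 (1.41, adjusted p = 0.269) and without knockdown DMSO replicate 1, 2 or 3 (adjusted p = 0.0707, 0.132 and 0.0568), and when scaled to total counts (1.45, adjusted p = 0.181) or mitochondrial mRNAs (0.76, adjusted p = 0.459). On the CPM scale the knockdown level under triptolide, 0.17 ± 0.12 CPM (SD, n = 3), remained far below the lowest control library.

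CRYAB rose in the knockdown line by 1.19 ± 0.38 (edgeR adjusted p = 0.0219), higher in 3 of 3 pairs, with groups that overlapped at knockdown DMSO replicate 2. The call was lost with total counts (0.52, adjusted p = 0.279), turned to -0.14 with mitochondrial mRNAs (adjusted p = 0.83), and was lost without knockdown DMSO replicate 1 or 3 or knockdown triptolide replicate 1 or 2 (adjusted p from 0.0532 to 0.106). Without knockdown DMSO replicate 2 it was 1.88. In the control line the change was 0.88 ± 0.36 (adjusted p = 0.0706), higher in 3 of 3 pairs, and passed with the block (adjusted p = 0.0103) and by DESeq2 (adjusted p = 0.0321). It was 0.24 with total counts and 0.03 with mitochondrial mRNAs.

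NPY1R fell by 0.82 ± 0.23 on the log2 scale in the control line (edgeR adjusted p = 0.0113) and by 0.98 ± 0.24 in the knockdown line (adjusted p = 0.00374), lower in 3 of 3 pairs in each. The groups did not overlap, and the direction held under each scaling. The control call was lost without control triptolide replicate 1 (adjusted p = 0.0564). NPY1R thus stood at 56.8% of its DMSO level in the control line and 50.6% in the knockdown line.

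The other 3 genes did not pass the test in either line. KYNU changed by 0.03 ± 0.55 in the control line (-0.62 with total counts) and -0.37 ± 0.79 in the knockdown line, the latter from 22 counts with DMSO and 11 with triptolide, and 0.55 without knockdown DMSO replicate 3. NOX1 changed by 0.36 ± 0.39 and 0.59 ± 0.51, values that were below 0 with total counts and with mitochondrial mRNAs. RFX2 changed by -0.01 ± 0.18 in the control line (adjusted p = 0.973). In the knockdown line RFX2 changed by -0.41 ± 0.18 (adjusted p = 0.0827), lower in 3 of 3 pairs with no overlap, and passed with the block (adjusted p = 0.0285). With total counts RFX2 passed in both lines, at -0.64 and -1.12 (adjusted p = 0.0127 and 0.000192).

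**Figure D3:**
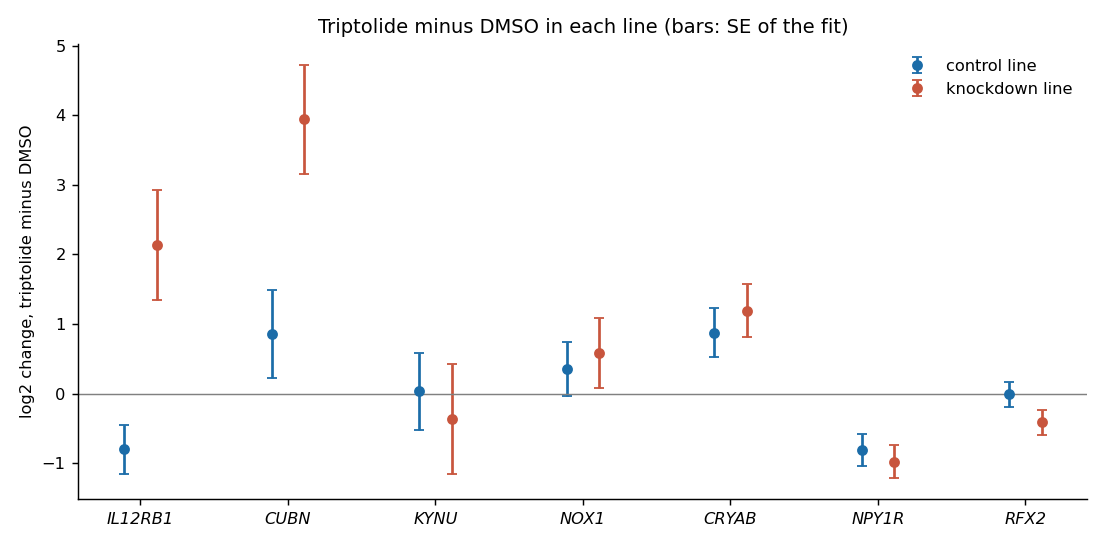
Log2 change of triptolide minus DMSO for 7 genes in the control line (blue) and the knockdown line (red), with bars for the SE of the fit (3 libraries per group). IL12RB1 lies below 0 in control and above 0 in knockdown cells, CUBN is highest in knockdown cells at 3.94, and NPY1R lies below 0 in both.

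The knockdown change minus the control change was 2.94 ± 0.87 for IL12RB1 and 3.08 ± 1.00 for CUBN. It was -0.40 ± 0.96 for KYNU, 0.23 ± 0.62 for NOX1, 0.32 ± 0.52 for CRYAB, -0.17 ± 0.32 for NPY1R and -0.40 ± 0.25 for RFX2. These differences are made of the same contrasts that chose the genes, so they were not tested.

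The partners of the listed genes were followed through 9 lists of 113 entries for the pathways that these genes belong to, of which 82 were tested, and none was called between the lines in any treatment. Over all genes, calls in either direction came to 0.0987% untreated, 0.094% with DMSO and 0.0658% with triptolide. With the replicate block, 0, 1 and 4 list genes were called higher and none lower, where 0.578%, 0.606% and 0.644% of all genes were called. All of the block's calls were in the list of the estrogen receptor and its targets, the receptor that induces NPY1R in breast cancer cells. They were TFF1, a secreted trefoil peptide, with DMSO and with triptolide (edgeR adjusted p = 0.0351 and 0.00141 with the block), and under triptolide the receptor gene ESR1 (adjusted p = 0.00474), the trefoil gene TFF3 (0.00679) and the scaffold gene PDZK1 (0.0211). Their differences in the fit without the block were 1.28 ± 0.60 and 1.87 ± 0.61 for TFF1, 0.70 ± 0.16 for ESR1, 1.12 ± 0.60 for TFF3 and 1.39 ± 0.42 for PDZK1. NPY1R went the other way in the same libraries. List genes that neither fit called went both ways. Untreated, with DMSO and with triptolide, AREG differed by -0.72, -1.04 and -0.74, and CXCL12 by 0.94, 0.85 and 1.30.

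The median list difference untreated was 0.25 for the 16 estrogen receptor genes tested, beside -0.02 for all genes. It was 0.04 for 7 genes of the interleukin-12 and interleukin-23 receptor pathway, 0.0065 for 14 of vitamin B12 uptake and use, -0.12 for 7 of the kynurenine pathway and 0.05 for 9 of the NADPH oxidases. It was -0.02 for 9 around the small heat shock proteins, 0.0055 for 6 other RFX factors and -0.07 for 13 ciliogenesis genes. Among the most abundant members, untreated, the kinase gene TYK2, which signals from the interleukin-12 receptor, differed by 0.09 ± 0.35 and the transcription factor gene STAT3 by 0.14 ± 0.17. The methionine synthase gene MTR, which uses vitamin B12, differed by -0.07 ± 0.19, and QPRT, a later enzyme of the kynurenine route, by -0.12 ± 0.17. RAC1, a GTPase that activates NOX1, differed by -0.03 ± 0.18 and HSPB1, an abundant small heat shock protein, by -0.02 ± 0.39. The chaperone gene HSPB8 measured 130.8 ± 60.9 CPM in untreated control and 79.6 ± 41.3 CPM in untreated knockdown cells (SD, n = 3), a difference of -0.72 ± 0.38 that was not called. Paired by replicate number, it was lower in each untreated knockdown library, at 126.1 against 198, 47 against 79.2 and 65.6 against 115.3 CPM. The block did not call HSPB8 either (edgeR adjusted p = 0.124). RFX5 differed by -0.04 ± 0.18 and the cilium gene DYNC2H1 by -0.34 ± 0.34.

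Under triptolide the same 82 genes gave 8 called higher and 19 lower in the control line, and 8 higher and 20 lower in the knockdown line, beside the shares of all genes above. With the replicate block the counts were 16 higher and 30 lower in the control line, and 21 higher and 27 lower in the knockdown line. STAT3 rose by 0.54 and 0.61 in the control and knockdown lines, and JAK2, another kinase of the pathway, changed by -0.88 and -1.34 (adjusted p = 0.032 and 0.00219). In the estrogen receptor list 0 of 16 were called higher and 6 lower in each line, including XBP1 at -3.83 and -4.01 and GREB1 at -1.18 and -1.02, the direction that NPY1R took. The block gave 3 higher and 9 lower in the control line and 3 higher and 8 lower in the knockdown line, the higher genes being TFF1, TFF3 and the protease gene CTSD.

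NPY5R, another neuropeptide Y receptor gene, was the only tested gene of the neuropeptide Y list other than NPY1R. It starts on the plus strand at chr4:164265044-164273086 and shares 941 bases with NPY1R on the minus strand. Its control libraries summed to 80 counts untreated, 80 with DMSO and 12 with triptolide, and its knockdown libraries to 20, 25 and 4. The difference between the lines was -1.93 ± 0.49, -1.73 ± 0.48 and -1.65 ± 0.68, close in size to that of NPY1R, and did not pass the test (edgeR adjusted p = 0.367, 0.581 and 1, and 0.0807, 0.115 and 0.581 with the block). The library kit keeps strand, but how the counting treated strand is not given in the sources used here, so reads of the shared stretch may have been counted for either gene.

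The same check was made on the other genes around the members: up to 3 tested genes on either side within 1000000 bases, 42 in all. None was called between the lines in any treatment, and the block called 1, the intermediate filament gene VIM near CUBN, higher under triptolide (1.34, edgeR adjusted p = 0.0168, against 1.22 ± 0.51 without the block). The neighbours' median difference was -0.09 untreated, -0.01 with DMSO and -0.09 with triptolide, against -0.02, -0.01 and -0.04 for all genes. MAST3, a kinase gene on the plus strand that overlaps the 5′ end of IL12RB1, measured 9.54 CPM in untreated control and 9.53 CPM in untreated knockdown cells, where IL12RB1 went from 23.3 to 0.049 CPM. RSU1, which begins 6503 bases from CUBN, differed by 0.03 ± 0.20, and TRDMT1, 7525 bases away on the other side, by -0.04 ± 0.28. CSTF2, 1804 bases from NOX1, differed by -0.05, and ACSBG2, which lies within the bounds of RFX2 on the other strand, by 0.15. These 5 neighbours lay between -0.05 and 0.15 untreated. Under triptolide they differed by -0.70 (MAST3), 0.20 (RSU1), -0.13 (TRDMT1), -0.02 (CSTF2) and 1.43 (ACSBG2). Other nearest neighbours, untreated, were ENSG00000273654 by IL12RB1 at -0.13, NSA2P3 by NOX1 at 0.17 and NAF1 by NPY1R at -0.16. CRYAB had CFAP68 at -0.16 and C11orf52 at 0.11, RFX2 had RANBP3-DT at -0.04, and FAM90A27P had ZNF818P at -0.09 and ZNF845 at -0.29. KYNU had 1 tested neighbour within 1000000 bases, GTDC1, at -0.25.

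**Figure D4:**
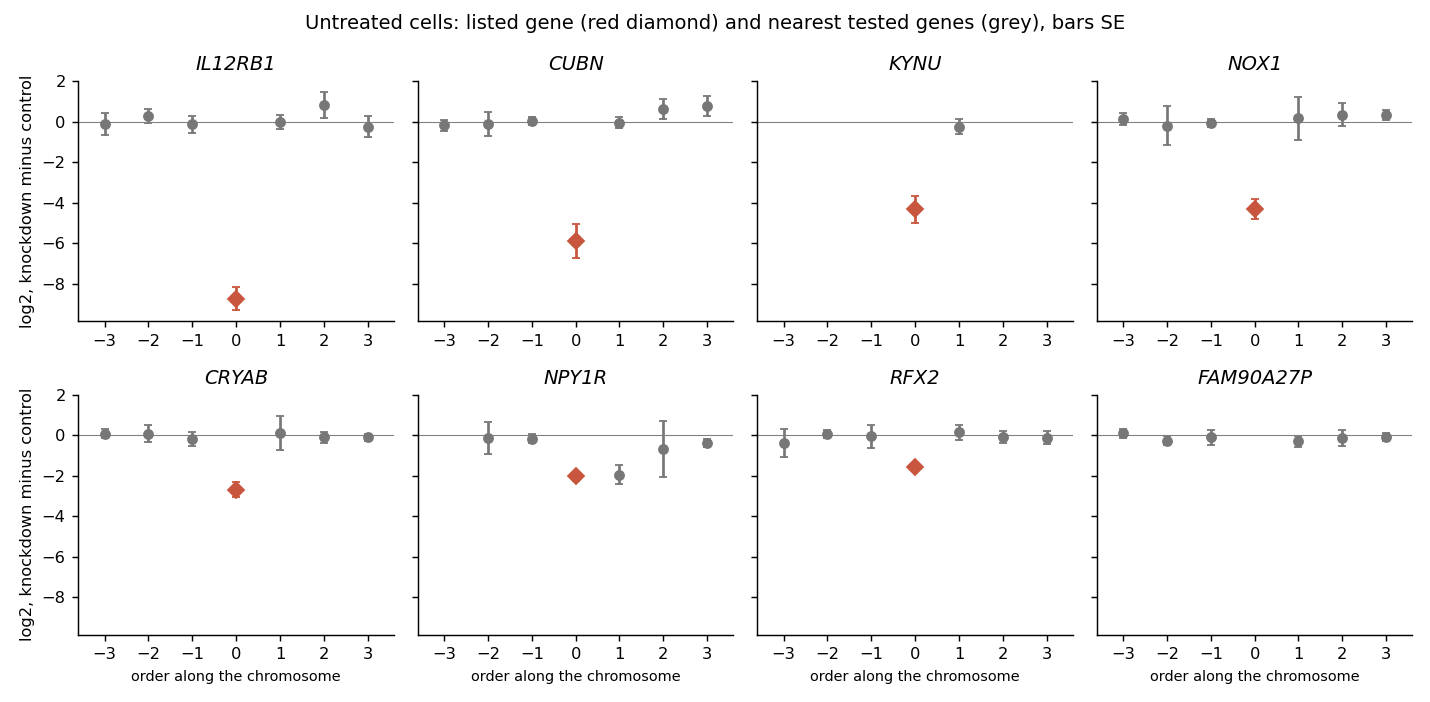
Log2 difference of knockdown minus control in untreated cells for each listed gene (red diamond, at 0) and the nearest tested genes on either side in chromosome order (grey), with bars for the SE of the fit. No diamond is drawn for FAM90A27P, which had 4 control counts and none in knockdown cells. Of the neighbours, NPY5R, next to NPY1R, lies furthest from 0 at -1.93, and the others lie between -0.67 (TKTL2) and 0.83 (IFI30).

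The genes whose levels ran most like each member over the 18 libraries were ranked by Pearson's r of log2(CPM + 1), as a description: the libraries share 2 lines and 3 treatments, so any gene that differs between the lines scores high. IL12RB1 was most like ENSG00000228809 (r = 0.98), RFX2 (0.96) and the antisense gene CAPN1-AS1 (0.95), and RFX2 was most like the same genes with IL12RB1 in first place. KYNU was most like the protocadherin gene PCDH11X (0.97), ENSG00000228809 (0.96) and NOX1 (0.94), and NOX1 like ENSG00000228809 (0.95), IL12RB1 (0.94) and KYNU (0.94). CRYAB was most like NOX1 (0.93), LHFPL6 (0.92) and CUBN (0.92). CUBN was most like LINC00667 (0.92), CRYAB (0.92) and SLC1A3 (0.92), a glutamate transporter gene. FAM90A27P had the lowest top value, 0.87, with ENSG00000265399, followed by LINC02757 (0.85) and ZNF280A (0.85).
NPY1R was most like RAB12 (0.94) and NDUFV2 (0.91), which both lie on the short arm of chromosome 18, and DNAJC6 (0.91).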

How the data were processed

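RNA of 18 ZR-75-1 libraries was sequenced from a stranded total RNA kit, per the labels. The deposited files hold the authors' raw counts per gene. Per the submitters' processing notes, reads were aligned to hg19 with STAR 2.4.2a, counted with HTSeq 0.6.1 and compared by means of DESeq2 1.4.5 under R 3.1. Annotation release and strand setting are not given in the sources used here. Of 60252 gene IDs, 58862 (97.7%) matched GENCODE release 44 on GRCh37. The 5 tallies of reads not assigned to a gene were left out. Reads tallied as no feature or ambiguous made up 13.2% to 21.7% of their sum with the counts in genes.

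Counts were tested with edgeR 4.0.16 (R 4.3.3): TMM scaling, the package's low-count filter by group (21285 genes kept), a quasi-likelihood fit of all 18 libraries in 6 groups with 12 residual degrees of freedom, and two-sided tests with Benjamini-Hochberg adjustment, called under 0.05. An SE is the log2 change over the square root of its F. Libraries of equal replicate number deviated together from their group means (r from 0.43 to 0.85 over 45 pairs, against -0.67 to -0.02 over 90 pairs of unequal number), so the numbers pair the libraries. A fit with the number as a block is given for ADAR, the members, the pathway lists and the neighbours where it changes a call. No block values are given for the chromosome 18 genes or for single genes called lower outside the list. No library repeated another (chi-square per degree of freedom at least 53.4). The scripts were tested on simulated data.

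The members, lists, comparisons and alternatives were chosen with earlier results of these data known. The promoter motifs, the count of 7 genes without FAM90A27P and the chromosome 18 region were chosen after values or sequences had been seen. Named are the members, ADAR, list genes that were called between the lines or abundant, the nearest and the called neighbours, the 3 genes most like each member, and genes called lower outside the list (several of those called in 1 treatment were named after their values were seen). Alternatives were other scalings, no low-count filter, the block, only the libraries compared, DESeq2 1.42.0 and leaving out each library. Intervals and floors of 3 counts cover counting error only.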

Additional observations from a re-analysis of the deposited data

Results flagged for a closer look

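IL12RB1 moved in opposite directions under triptolide in the lines. It was lower in 3 of 3 pairs of the control line and higher in 3 of 3 pairs of the knockdown line, and the knockdown change minus the control change was 2.94 on the log2 scale. The difference was not tested, because it is built from the contrasts that chose the gene. The knockdown side rests on 12 counts with triptolide and 4 with DMSO.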

How the results depend on the processing

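In the control line, the 1 of 7 genes called under triptolide became 3 with total counts, 2 with mitochondrial mRNA scaling, 2 with no low-count filter, 4 with the replicate block, 2 with only the libraries compared, 3 by DESeq2, and 0 to 1 with each library left out. In the knockdown line, the 4 called became 2 with only the libraries compared and 2 to 4 with each library left out. Scaling changed which genes were called there. IL12RB1 and CRYAB lost their calls with total counts and with mitochondrial mRNA scaling, and RFX2 gained one with total counts. The pairing by replicate number, kept as a block, gave 5 there. The rise of CRYAB in the knockdown line turned to -0.14 with mitochondrial mRNA scaling. Among pathway genes between the lines, 0 called with DMSO became 1 with no low-count filter and 1 with the replicate block, and 0 called with triptolide became 3 with no low-count filter, 4 with the replicate block and 1 by DESeq2. The replicate block called 1 neighbouring gene under triptolide in place of 0. The counts of all genes called lower and higher between the lines, 21, 20 and 14, became 123, 129 and 137 with the block, 54, 43 and 40 by DESeq2, 91, 74 and 60 with no low-count filter, 5, 4 and 8 with only the libraries compared, and 10 to 16, 12 to 16 and 9 to 17 with each library left out. The cause of these shifts was not tested. The differences of the 7 members between the lines kept their direction under every alternative run. The genes were chosen for that direction in the same libraries, so nothing is read from this. With the block the triptolide calls were 11090 and 12163 genes, against 6565 and 7589. In the knockdown line IL12RB1, KYNU and NOX1 had 22 counts or fewer in each DMSO or triptolide group, which limits what a change there can show.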

Other observations

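The genes most like NPY1R, RAB12 and NDUFV2, stand close together on chromosome 18, and the region was looked at after their values were seen. From the start of RAB12 (chr18:8609435-8639381) to the end of NDUFV2 (chr18:9102628-9134343) there were 5 tested genes. All 5 had a lower mean in the knockdown line in untreated cells and with DMSO. The stretch was bounded by RAB12 and NDUFV2 for their likeness to NPY1R, and MTCL1 within it was already called lower. Nothing is therefore read from this count. RAB12, a small GTPase gene of membrane traffic, measured 41.3 CPM in untreated control and 14.2 CPM in untreated knockdown cells, a log2 difference of -1.54 ± 0.30 (edgeR adjusted p = 0.0721). MTCL1, a microtubule crosslinking factor gene at chr18:8705554-8832776, was 29.4 CPM in control and 10.4 CPM in knockdown cells (-1.49 ± 0.27, adjusted p = 0.0321). NDUFV2, which encodes a subunit of respiratory complex I, was 4.78 and 1.17 CPM (-2.03 ± 0.34, adjusted p = 0.023). The other 2 are long noncoding RNA genes, ENSG00000266708 at -1.86 ± 1.02 and ENSG00000263847 at -1.35 ± 0.59, which did not pass the test.

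Protein-coding genes that follow within 1000000 bases were closer to 0, among them the following. In untreated cells ANKRD12 differed by -0.60 ± 0.43, TWSG1 by -0.47 ± 0.20, PPP4R1 by -0.43 ± 0.25, RAB31 by -0.76 ± 0.23 and VAPA by -0.58 ± 0.35. The fit without the block called none of them. LINC00667, the gene most like CUBN, lies on the same chromosome at chr18:5237825-5290607 and measured 11.7 CPM in untreated control and 4.18 CPM in untreated knockdown cells. On chromosome 11, the lower genes PGAM1P8 (chr11:64941588-64943941) and CAPN1-AS1 (chr11:64945077-64949305) also stand next to each other, at -2.69 and -2.15 in untreated cells.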
